A study of Mus musculus with 24 samples.

Results

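The Hox cluster genes were chosen by symbol: every gene whose probe set on the array is annotated to 1 symbol made of Hox, a cluster letter a to d and a paralogue number. This gave 37 of the 19938 genes tested, with 10 in cluster A and 9 each in clusters B, C and D. Each had 1 row in the table. Hoxb8 was read only from a row that it shares with Hoxb7.

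Hox genes encode homeodomain transcription factors that lie in 4 clusters on different chromosomes. Within a cluster the order of the genes along the DNA matches the order of their expression along the head-to-tail axis, and in limbs along the shoulder-to-fingertip axis, so cells keep a Hox code that reflects where in the body they came from. Genes with low paralogue numbers are called anterior (1 to 4 here), those in the middle central (5 to 8) and those with high numbers posterior (9 to 13). Polycomb and trithorax proteins maintain the silent and active states, retinoic acid acts mainly on anterior genes, and posterior genes of clusters A and D pattern the limb, where bone morphogenetic proteins (BMPs) are among the signals. Pbx, Meis and Pknox proteins bind DNA together with Hox proteins.

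RNA from 24 mouse muscle cell samples was measured on Affymetrix whole-transcript arrays, 1 array per sample, in 8 groups of 3. The study asked whether MuSK, the receptor tyrosine kinase of the neuromuscular junction, alters how muscle cells respond to BMP4, and whether this depends on the stage of the cells. Wild-type cells were an H-2Kb-tsA58 line, which carries a temperature-sensitive large T antigen and so divides at 33 °C, and the other genotype was a MuSK-/- line, called MuSK-null below. Both are immortalised lines, 1 per genotype.

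The 4 groups of each line were untreated myoblasts, myoblasts given 25 ng/ml BMP4 for 8 hours, untreated myotubes, and myotubes given the same dose for the same time. Myoblasts grew at 33 °C with interferon gamma, which drives the large T antigen in H-2Kb-tsA58 cells. Myotubes, the fused contractile cells, formed during 3 days at 37 °C in horse serum without it. Treated myoblasts were deprived of serum for 4 hours before BMP4, treated myotubes were not, and for untreated myoblasts the labels leave this unsaid. Serum deprivation and BMP4 therefore cannot be told apart in myoblasts. The labels call the 3 samples of a group biological replicates but not whether they were separate cultures, so every p-value refers to the variation among these arrays, some of which may be technical. Their number limits the precision.

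The treatment and the labels were checked first. The 5 canonical BMP targets Id1, Id2, Id3, Smad6 and Smad7 rose with BMP4 in all 4 settings, with median log2 changes of 2.29 in wild-type myoblasts, 0.99 in MuSK-null myoblasts, 1.78 in wild-type myotubes and 2.19 in MuSK-null myotubes. Before treatment all 5 were already higher in MuSK-null than in wild-type myoblasts, by a median of 1.21, and 4 of them responded less there, with a median difference of -0.87. All 5 fell as MuSK-null myoblasts became myotubes, by a median of -1.51. The Musk row was lower in the MuSK-null line by 0.72 to 1.51 on the log2 scale over the 4 genotype comparisons, but still read 10.69 to 11.32 there against 11.50 to 12.84 in wild type. The exons covered by its probes are not stated, so this row shows a lower level and not the deletion itself. Xist was higher in the MuSK-null line by 7.03 to 7.40 and the Y-linked gene Uty differed by -5.37 to -4.50, so the lines also differed in sex-linked genes, and MuSK genotype, sex and origin of the line cannot be told apart.

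Myotube markers differed with genotype too. All 8 were lower in untreated MuSK-null than wild-type myoblasts, with a median difference of -2.20, and their summed signal was 9660 to 10200 against 41500 to 44900 on the linear scale. Of 8 fibroblast markers, 4 were higher and 1 lower in the same comparison, with summed signals of 18500 to 19900 against 10900 to 11100. Of the 7 myoblast markers 2 were higher and 3 lower, with a median difference of -0.11. Their summed signal was 12900 to 14500 against 23400 to 25700. Of 5 endothelial markers Kdr, Tek and Emcn were dim on all 24 arrays, and 0 to 2 were bright in a group. Of 3 measured neural and Schwann markers Elavl4 was dim on all 24 arrays, and 1 or 2 were bright in each group. In bulk RNA, fewer cells of a type and less RNA per cell cannot be told apart, and the part of cell composition in the Hox values was not tested.

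Finally, 4 myoblast arrays deviated together from the means of their own groups: untreated wild-type replicate 2, BMP4 wild-type replicate 3, untreated MuSK-null replicate 2 and BMP4 MuSK-null replicate 2. Their deviations correlated at 0.42 to 0.54 over the genes tested. Among the 8 other myoblast arrays, pairs from different groups correlated at most at 0.29. The labels name no batch for them. For each comparison that uses them, the count of called Hox genes is also given with these arrays as a block and without them.

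Deposited values were log2 signals. The Hox genes were sorted by their signal on each array. As a yardstick for no expression, each array's 1015 olfactory receptor rows were used, genes taken as silent in muscle cells; their median was 4.90 to 5.08 and their 95th percentile 6.55 to 6.82. A gene is called bright in a group where all 3 arrays lay above that percentile of the same array, and dim where none did. By this measure 24 of the 37 Hox genes were bright in all 8 groups, 6 were dim in all 8, and 7 lay between.

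Clusters A and C were read almost throughout. All 9 Hoxc genes and 8 of 10 Hoxa genes were bright in all 8 groups, the exceptions being Hoxa2 and Hoxa3. Cluster B was mixed: Hoxb1, Hoxb3, Hoxb5 and Hoxb9 were bright everywhere, while Hoxb2, Hoxb4, Hoxb6, Hoxb7 and Hoxb13 were bright in some groups only. Cluster D held all 6 dim genes, Hoxd1, Hoxd3, Hoxd4, Hoxd8, Hoxd12 and Hoxd13. Its bright genes were the neighbours Hoxd9, Hoxd10 and Hoxd11, which ranged over all 24 arrays from 6.78 to 7.13, from 6.66 to 7.35 and from 6.86 to 7.37. These ranges are narrow, and the 8 group means of Hoxd9 lay between 6.83 and 7.03. All values of these 3 genes lay below the array medians of 7.38 to 7.50. Bright here means above the yardstick, not a strong signal.

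The paralogues of group 13 show the contrast between clusters. Hoxa13, which patterns the distal limb and the hindgut, read from 7.51 to 9.57 over the 24 arrays. Its paralogue Hoxd13, which acts in the digits, read from 6.18 to 6.54 and was dim in every group. Hoxc13, known for its role in hair and nails, read from 9.29 to 10.67 and was bright in every group. Hoxb13 lay between, reading from 6.36 to 7.37, bright in 4 groups and dim in 3.

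**Figure D1:**
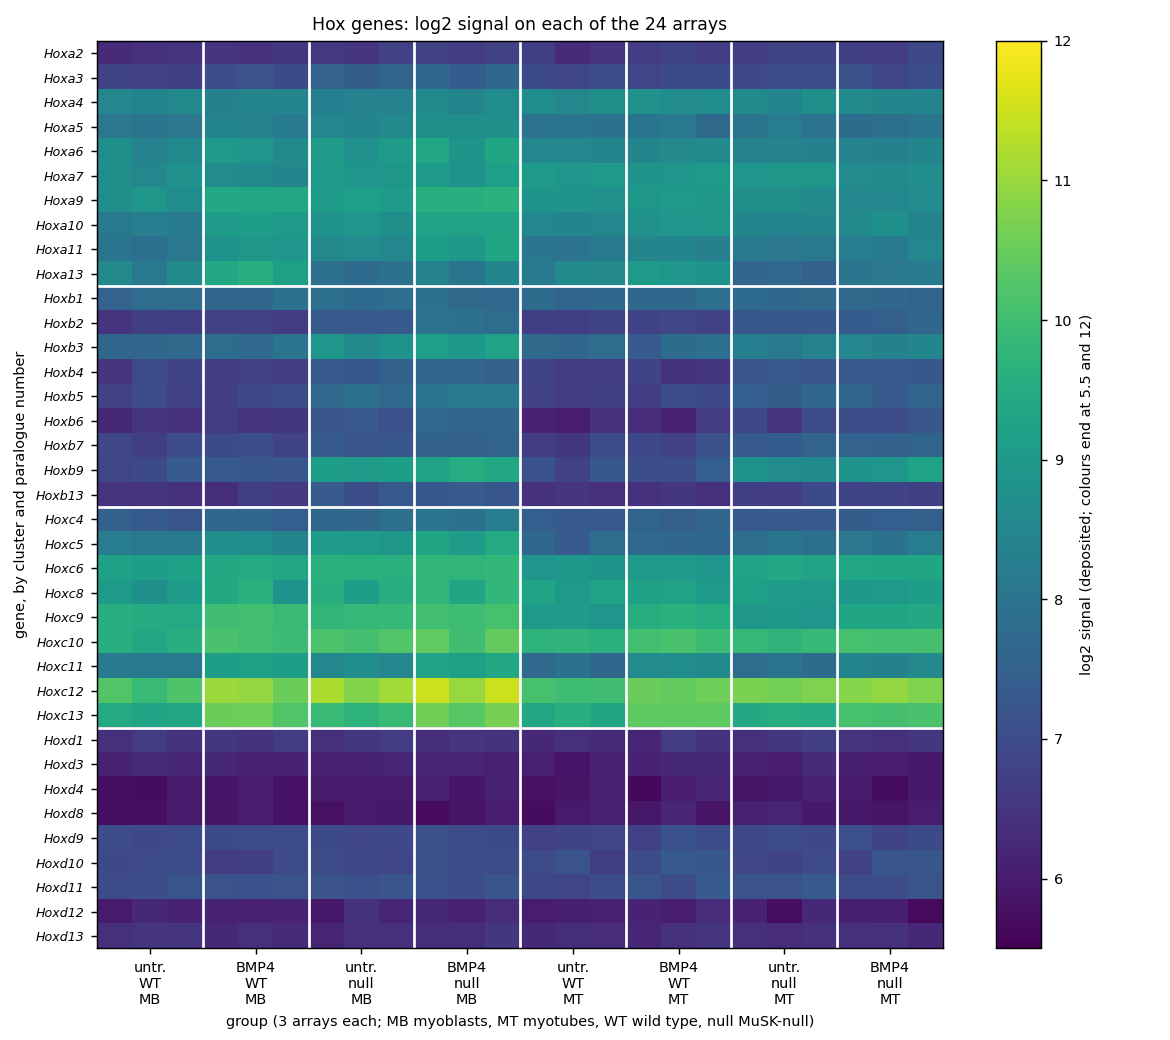
Log2 signal of the 37 Hox genes (vertical axis, by cluster A to D and paralogue number) on each of the 24 arrays (horizontal axis, 3 per group); colour gives the deposited log2 signal. Clusters A and C are read in all groups, cluster B is higher in the MuSK-null groups, and 6 of the 9 Hoxd genes are dim throughout.

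BMP4 raised posterior genes of clusters A and C, in both lines and at both stages, while no posterior gene of clusters B and D was called. In wild-type myoblasts all 9 posterior A and C genes rose, from Hoxa9 to Hoxa13 and from Hoxc9 to Hoxc13, with a median log2 change of 0.89. In MuSK-null myoblasts 6 of the 9 rose, with a median of 0.44 over the 9. In wild-type myotubes 8 of 9 rose (median 0.49), and in MuSK-null myotubes 4 of 9 (median 0.28). Of all 19938 genes, 5.21%, 3.89%, 4.4% and 5.36% were called higher in these settings, in the same order. The median change over all genes was between -0.01 and 0.02. Of the 7 posterior genes of clusters B and D, 0 were called in each of the 4 settings by limma; at an unadjusted p under 0.05 there were 0, 0, 2 and 1 of them. With the replicate number as a block, Hoxd11 was called higher in wild-type myotubes.

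In wild-type myoblasts 13 of 37 Hox genes rose and 0 fell at an adjusted p under 0.05 (limma, Benjamini-Hochberg over all genes), against 5.21% of all genes tested called higher, 5.76% called lower and 11% either way. The arrays of both groups did not overlap for 14 Hox genes, and for 23.3% of all genes. At an unadjusted p under 0.05, 16 Hox genes were higher and 0 lower. The 13 comprised 6 Hoxa and 7 Hoxc genes. With the 4 deviating arrays as a block and without them 16 rose, adding Hoxa6, Hoxc4 and Hoxc8. Besides the posterior members, Hoxa3, Hoxa5, Hoxc5 and Hoxc6 rose, by 0.23 to 0.41, and of these Hoxa3 and Hoxa5 lost the call when any of 5 of the 6 arrays was left out. No Hoxb or Hoxd gene was called, and 0 of them reached an unadjusted p under 0.05.

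Hoxc13 read 9.47, 9.29 and 9.37 on the untreated wild-type myoblast arrays and 10.55, 10.57 and 10.24 with BMP4. It rose 2.11-fold (log2 change 1.08, SE 0.09, adjusted p = 1.07e-08). Every BMP4 array lay above every untreated one.

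Hoxc11, a posterior gene of hindlimb and tail, read 8.20, 8.16 and 8.14 without and 9.15, 9.19 and 9.12 with BMP4, a log2 change of 0.99 (SE 0.08, adjusted p = 1.92e-09). Both groups were tight and well apart. Hoxa13 read 8.56, 8.12 and 8.59 without and 9.37, 9.57 and 9.20 with BMP4 (log2 change 0.96, SE 0.13, adjusted p = 1.43e-05). Hoxa11, which patterns the forearm and the uterus, read 8.02, 7.89 and 8.07 without and 8.82, 8.95 and 8.90 with BMP4 (log2 change 0.90, SE 0.09, adjusted p = 8.45e-08). For both genes the arrays did not overlap. Hoxa10 and Hoxa9 rose by 0.89 and 0.62, and Hoxc12, Hoxc10 and Hoxc9 by 0.71, 0.52 and 0.46.

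The change grew along clusters A and C. Over the 10 Hoxa genes, Spearman's rho between paralogue number and log2 change was 0.73 in wild-type myoblasts, and over the 9 Hoxc genes it was 0.90. In wild-type myotubes the values were 0.58 and 0.77, in MuSK-null myoblasts 0.71 and 0.35, and in MuSK-null myotubes 0.50 and 0.63. These are descriptions across genes that share arrays and neighbourhood. In cluster B the same measure lay between -0.15 and 0.33, and in cluster D between -0.35 and 0.47, over 9 genes of which 6 were dim.

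**Figure D2:**
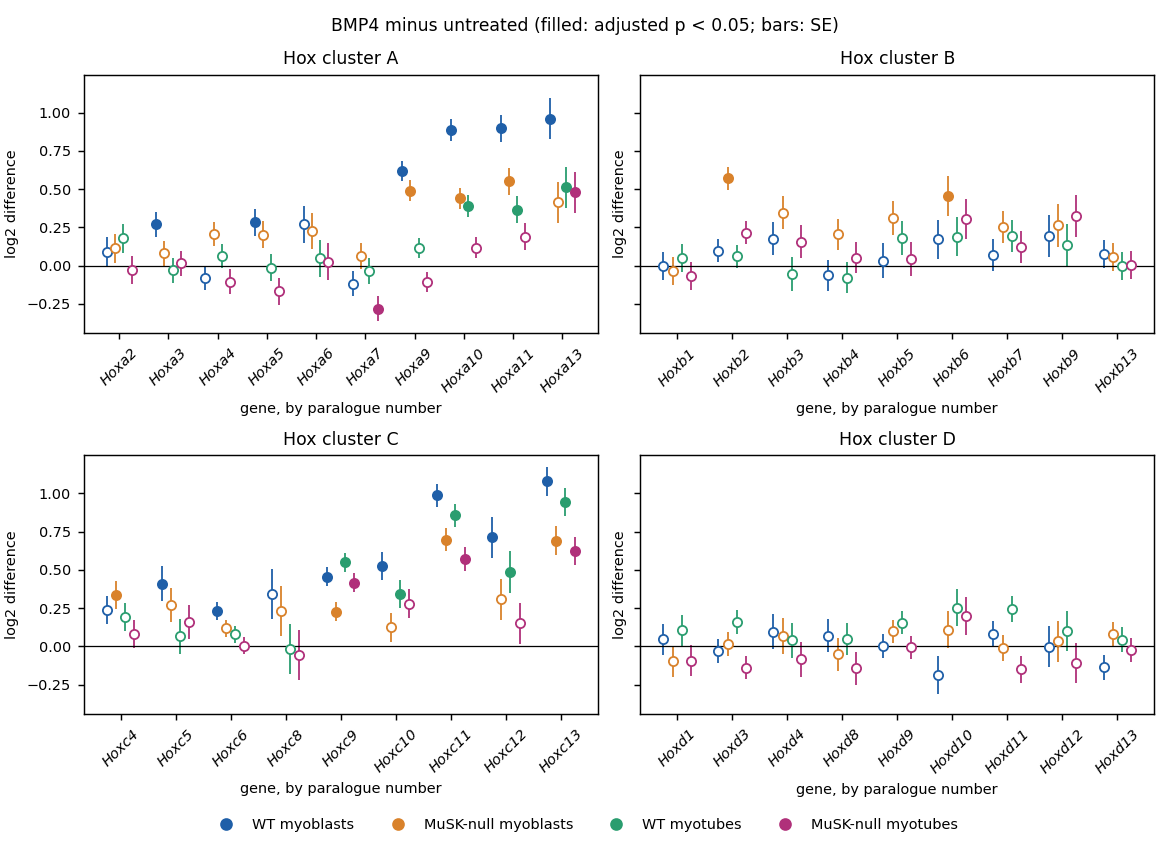
BMP4 minus untreated, in log2 units (vertical axis), for each Hox gene by cluster and paralogue number (horizontal axis); colours mark the 4 combinations of line and stage, filled points have an adjusted p under 0.05 and bars are the standard error. The rises gather at the posterior ends of clusters A and C, up to 1.08 for Hoxc13 in wild-type myoblasts.

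In MuSK-null myoblasts 9 of 37 Hox genes rose and 0 fell, against 3.89% of all genes tested called higher, 4.52% called lower and 8.42% either way. The arrays did not overlap for 18 Hox genes, and for 21.8% of all genes. With median centring of the arrays 33.9% of all called genes were higher, against 46.2% as deposited, and 8 Hox genes rose. At an unadjusted p under 0.05, 18 Hox genes were higher and 0 lower. Hoxc11 read 8.51, 8.69 and 8.50 without and 9.24, 9.18 and 9.36 with BMP4 (log2 change 0.70, SE 0.08, adjusted p = 5.81e-07). Hoxc13 read 9.90, 9.71 and 9.91 without and 10.59, 10.32 and 10.67 with BMP4 (log2 change 0.69, SE 0.09, adjusted p = 1.12e-05). In both genes every treated array was above every untreated one.

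An anterior gene of cluster B joined them in this line. Hoxb2, which patterns the hindbrain, read 7.38, 7.33 and 7.31 without and 7.97, 7.92 and 7.83 with BMP4 (log2 change 0.57, SE 0.08, adjusted p = 9.35e-06). Hoxa11 read 8.56, 8.63 and 8.54 without and 9.11, 8.96 and 9.31 with BMP4 (log2 change 0.55, SE 0.09, adjusted p = 1.08e-04). Neither gene's arrays overlapped. The other genes that rose were Hoxa9 (0.49), Hoxb6 (0.45), Hoxa10 (0.44), Hoxc4 (0.33) and Hoxc9 (0.23). Same-numbered arrays deviated together in this comparison, and with the replicate number as a block in a fit on its groups alone 11 genes rose, with Hoxa13, Hoxb3 and Hoxc12 added and Hoxc9 lost. Hoxb6 was lost in 4 of the 6 fits that left out 1 array, and Hoxc4 and Hoxc9 in 3 each.

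The count in MuSK-null myoblasts varied from 6 to 15 with the array left out. Without BMP4 MuSK-null replicate 2, one of the 4 arrays that deviated together, 15 Hox genes rose, and without BMP4 replicate 3, 6 did. With those 4 arrays as a block, 14 rose, and without them 12, with Hoxb6 lost. Hoxa13 and Hoxc12, which missed the threshold with all arrays (log2 changes 0.41 and 0.31), were called in both of these fits.

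In wild-type myotubes 8 of 37 Hox genes rose and 0 fell, against 4.4% of all genes called higher, 4.37% lower and 8.77% either way. The arrays did not overlap for 10 Hox genes, and for 24.7% of all genes. At an unadjusted p under 0.05, 11 were higher and 0 lower. All 8 were posterior A or C genes, and Hoxa9 (0.11) was the one that was not called. Hoxc13 read 9.40, 9.57 and 9.32 without and 10.38 on each of the 3 arrays with BMP4 (log2 change 0.94, SE 0.09, adjusted p = 1.68e-07). Hoxc11 read 7.72, 7.92 and 7.70 without and 8.62, 8.69 and 8.59 with BMP4 (log2 change 0.86, SE 0.08, adjusted p = 3.96e-08). Their groups lay well apart.

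Hoxc9, a thoracic-level gene, read 9.07, 9.07 and 8.92 without and 9.54, 9.64 and 9.53 with BMP4 in these myotubes (log2 change 0.55, SE 0.06, adjusted p = 1.52e-06). Hoxa13 read 8.15, 8.59 and 8.56 without and 9.08, 8.91 and 8.84 with BMP4 (log2 change 0.51, SE 0.13, adjusted p = 0.0157). Both sets of arrays were separate, but the Hoxa13 call was lost without replicate 1 of either group, with an adjusted p of up to 0.13.

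In MuSK-null myotubes 4 of 37 Hox genes rose and 1 fell, against 5.36% of all genes called higher, 5.9% lower and 11.3% either way, and at an unadjusted p under 0.05 there were 9 and 1. The arrays did not overlap for 12 Hox genes, and for 25.9% of all genes. Hoxc13 read 9.44, 9.54 and 9.49 without and 10.11, 10.09 and 10.14 with BMP4 (log2 change 0.62, SE 0.09, adjusted p = 3.76e-05). Hoxc11 read 7.81, 8.03 and 7.80 without and 8.44, 8.36 and 8.55 with BMP4 (log2 change 0.57, SE 0.08, adjusted p = 9.50e-06). Both rose on every array.

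Hoxa13 read 7.62, 7.73 and 7.51 without and 8.06, 8.07 and 8.16 with BMP4 in the MuSK-null myotubes (log2 change 0.48, SE 0.13, adjusted p = 0.0195). Hoxc9 read 8.93, 8.97 and 8.90 without and 9.32, 9.31 and 9.42 with BMP4 (log2 change 0.42, SE 0.06, adjusted p = 4.06e-05). The gene that fell was central: Hoxa7 read 8.90, 8.95 and 8.94 without and 8.64, 8.61 and 8.69 with BMP4 (log2 change -0.28, SE 0.08, adjusted p = 0.0244). None of the 3 overlapped between groups, but the call of Hoxa13 was lost in 4 of the 6 fits that left out 1 array and that of Hoxa7 in 5 of 6. The total was 3 without untreated replicate 1, untreated replicate 3 or BMP4 replicate 2.

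**Figure D3:**
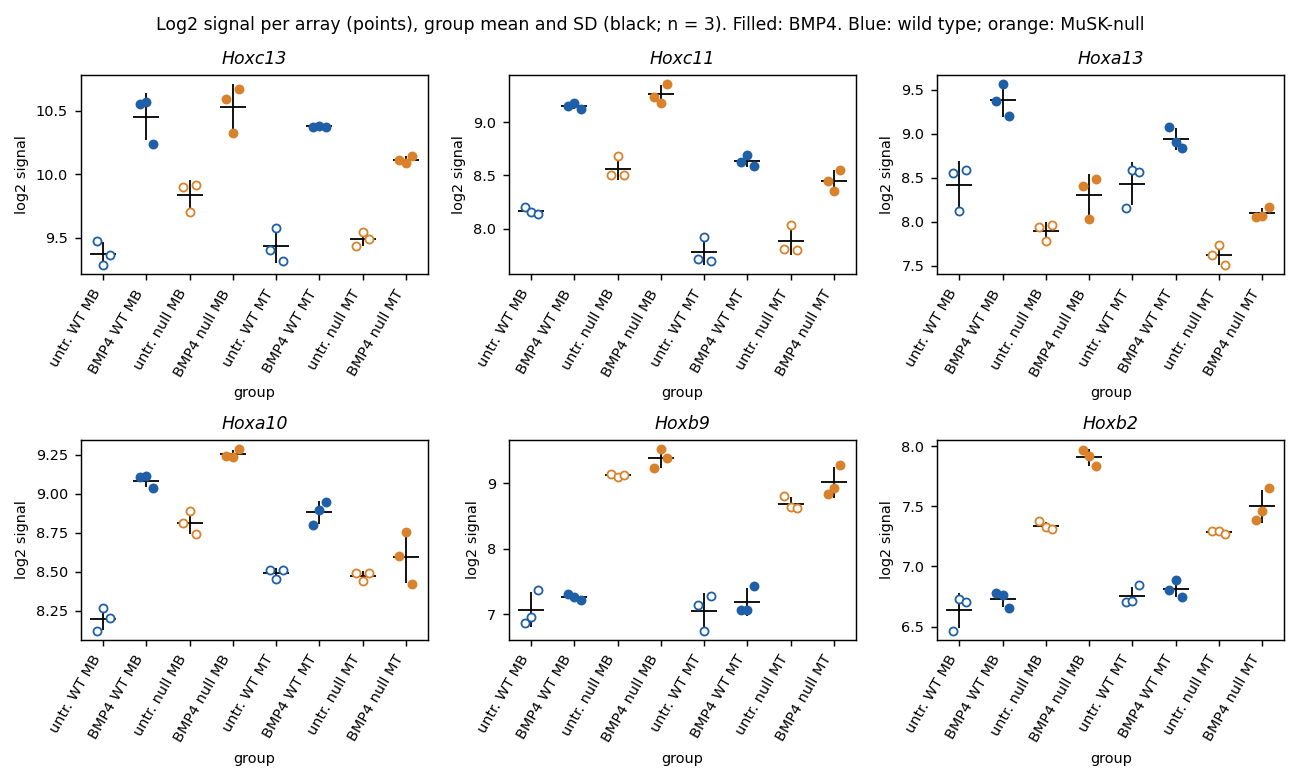
Log2 signal (vertical axis) on each array for 6 Hox genes in the 8 groups (horizontal axis); points are arrays, filled with BMP4, blue for wild type and orange for MuSK-null, and black bars give mean and SD (n = 3). Hoxc13 and Hoxc11 are higher with BMP4 in every pair of groups, Hoxa13 is lower and Hoxb9 and Hoxb2 are higher in the MuSK-null line.

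The size of the BMP4 response was compared between the lines by the difference of the 2 changes. In myoblasts 1 Hox gene responded more in the MuSK-null line and 1 less, against 1.17% of all genes called higher, 1.22% lower and 2.39% either way. With median centring 36.7% of all called differences were higher, against 48.8% as deposited, and 1 Hox gene was called. Hoxa10, a posterior gene of the hindlimb and uterus, read 8.12, 8.27 and 8.21 in untreated and 9.11, 9.11 and 9.04 in treated wild-type myoblasts. In the MuSK-null line it read 8.81, 8.89 and 8.74 untreated and 9.24, 9.23 and 9.29 treated. The lines differed before treatment and lay closer together after it, with the response smaller by 0.45 in the MuSK-null line (SE 0.10, adjusted p = 0.0120).

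Hoxb2 responded more in the MuSK-null line, by 0.47 (SE 0.11, adjusted p = 0.0140). Wild-type arrays read 6.47, 6.73 and 6.71 untreated and 6.78, 6.76 and 6.66 treated, which is near the olfactory receptor yardstick. Without the 4 arrays that deviated together neither difference was called, at -0.46 for Hoxa10 (adjusted p = 0.0624) and 0.38 for Hoxb2 (adjusted p = 0.225), while with those arrays as a block both remained called and Hoxa13, Hoxc10, Hoxc12 and Hoxc13 were called too. Hoxb2 was also not called without untreated wild-type replicate 3 or with median centring.

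For the other posterior A and C genes the difference in myoblasts ran from -0.54 for Hoxa13 (95% interval -0.94 to -0.15) to -0.13 for Hoxa9 (-0.32 to 0.07), and none of these 8 passed the threshold over all genes. Of all 9, 8 had an unadjusted p under 0.05, and all 9 differences were negative. In myotubes 0 Hox genes differed in response by limma, against 1.5% of all genes called higher, 1.71% lower and 3.21% either way, and 7 had an unadjusted p under 0.05, all lower. Without BMP4 wild-type replicate 2 or BMP4 MuSK-null replicate 2, 1 Hox gene was called. The difference for Hoxc13 in myotubes was -0.32 (95% interval -0.60 to -0.05), for Hoxc11 -0.29 (-0.51 to -0.06) and for Hoxa13 -0.03 (-0.43 to 0.36). These p-values do not show that the lines responded alike.

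Promoter windows of 3 members are shown because these genes behaved differently: Hoxa13 and Hoxa10 rose with BMP4, and Hoxd13 was dim throughout. RefSeq windows on GRCm38.p6 were found for 21 of the 37 members, 23 windows in all because some genes have more than 1 start site. Each sequence is the 250 bases before the most upstream start site, read 5′ to 3′ on the gene's strand. Capitals mark matches on either strand to GGCGCC, a GC-rich element bound by BMP-activated Smad proteins, or to CAGAC, a form of the Smad-binding element. The 2 motifs do not overlap here. The windows are chr6:52260881-52261130 for Hoxa13 and chr6:52240855-52241104 for Hoxa10, both on the minus strand, and chr2:74667975-74668224 for Hoxd13 on the plus strand.
Hoxa13: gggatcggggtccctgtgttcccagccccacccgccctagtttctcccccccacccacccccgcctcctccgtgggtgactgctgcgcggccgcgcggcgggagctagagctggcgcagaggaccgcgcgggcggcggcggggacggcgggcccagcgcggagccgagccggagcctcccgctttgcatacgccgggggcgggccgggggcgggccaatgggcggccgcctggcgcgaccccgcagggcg
Hoxa10: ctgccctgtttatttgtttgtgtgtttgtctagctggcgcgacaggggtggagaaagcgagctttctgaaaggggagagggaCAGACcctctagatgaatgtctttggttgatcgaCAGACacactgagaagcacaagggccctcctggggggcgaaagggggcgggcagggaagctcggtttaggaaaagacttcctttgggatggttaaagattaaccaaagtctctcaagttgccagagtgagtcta
Hoxd13: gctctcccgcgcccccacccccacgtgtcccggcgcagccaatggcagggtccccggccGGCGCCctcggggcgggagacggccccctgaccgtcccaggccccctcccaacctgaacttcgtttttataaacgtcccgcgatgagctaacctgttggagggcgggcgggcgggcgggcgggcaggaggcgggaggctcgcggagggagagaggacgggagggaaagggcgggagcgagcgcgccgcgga

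The Hoxa13 window held neither motif, although Hoxa13 rose in 3 of the 4 settings. The Hoxa10 window shown held 2 CAGAC matches, starting 168 and 134 bases before the start site, and the window of its other start site, chr6:52234940-52235189, held 0 of them and 1 GGCGCC match, 136 bases before. The window of the dim gene Hoxd13 held 1 GGCGCC match, 191 bases before it. GGCGCC was found in 5 of the 23 Hox windows and in 9.59% of all 32851 windows of this length, and CAGAC in 6 of 23 and in 42.2%. A match is a run of letters and not a shown binding site, and its absence in this window says nothing of sites elsewhere.

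The MuSK-null line had higher cluster B genes in every setting. The same 8 of 9 Hoxb genes, all but Hoxb1, were higher in the MuSK-null line in untreated myoblasts, BMP4 myoblasts, untreated myotubes and BMP4 myotubes, with median differences over the 9 genes of 0.77, 1.11, 0.58 and 0.69. The comparisons of treated and of untreated cells rest on different arrays. Fibroblast markers also differed in each: in myotubes 5 of 8 were higher and 2 lower, with summed signals of 19600 to 20900 against 8420 to 8950 untreated and 18300 to 18800 against 8590 to 9310 with BMP4, and in myoblasts 4 were higher and 1 lower. Of 8 myotube markers 6 were lower in untreated myotubes, and in BMP4 myotubes 4 were lower and 1 higher, and the part of these differences in the Hox values was not tested. Over all Hox genes, 24 were higher and 1 lower in untreated myoblasts, against 15.3% and 16% of all genes tested and 31.3% either way. With BMP4, 19 were higher and 1 lower in myoblasts, against 14.1% and 15.6% of all genes and 29.7% either way. In untreated myotubes 13 were higher and 2 lower, against 19.4%, 18% and 37.4%. In BMP4 myotubes 10 were higher and 7 lower, against 17.5%, 18.8% and 36.3%. The share of Hox genes called was closer to that of all genes in myotubes than in myoblasts. The lines did not overlap for 28, 19, 17 and 21 Hox genes in these comparisons, and for 39.8%, 39.9%, 50% and 43.9% of all genes. With the 4 deviating arrays as a block, 25 and 22 Hox genes were called in untreated and BMP4 myoblasts, and without them 24 and 20.

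Hoxb9, the most posterior gene of the main Hoxb block and a thoracic-level gene, had the largest difference of all Hox genes. It read 6.87, 6.97 and 7.38 in untreated wild-type myoblasts and 9.14, 9.09 and 9.13 in MuSK-null ones, 4.13-fold higher (log2 difference 2.05, SE 0.14, adjusted p = 3.12e-11). With BMP4 it read 7.31, 7.26 and 7.23 against 9.24, 9.52 and 9.39 (log2 difference 2.11, SE 0.14, adjusted p = 1.85e-11). The lines were far apart either way.

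In untreated myotubes Hoxb9 read 7.14, 6.76 and 7.28 in wild type and 8.80, 8.64 and 8.62 in the MuSK-null line (log2 difference 1.63, SE 0.14, adjusted p = 1.37e-09). In BMP4 myotubes it read 7.07, 7.06 and 7.44 against 8.84, 8.93 and 9.27 (log2 difference 1.82, SE 0.14, adjusted p = 2.27e-10). Its highest wild-type array of all 12 stood at 7.44 and its lowest MuSK-null array at 8.62.

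Anterior and central Hoxb genes differed by less. Hoxb3, a hindbrain and neck-level gene, read 7.63, 7.65 and 7.75 in untreated wild-type and 8.91, 8.60 and 8.83 in MuSK-null myoblasts (log2 difference 1.10, SE 0.11, adjusted p = 2.75e-08). Hoxb5 read 6.75, 7.03 and 6.78 against 7.72, 7.94 and 7.71 (log2 difference 0.94, SE 0.11, adjusted p = 4.06e-07). For both the lines were separate on every array. Over the 4 comparisons Hoxb3 differed by 0.56 to 1.27, Hoxb5 by 0.66 to 1.22, Hoxb2 by 0.53 to 1.18 and Hoxb6 by 0.63 to 1.11. Hoxb7 (0.39 to 0.68), Hoxb4 (0.58 to 0.87) and Hoxb13 (0.33 to 0.77) were called in each as well. In wild type Hoxb4, Hoxb6 and Hoxb13 were bright in no group, and Hoxb2 and Hoxb7 in some only. Their wild-type signal was near the yardstick, at 5.99 to 6.64 for Hoxb6. Whether this reduced their differences was not tested.

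Clusters A and C differed between the lines mainly in myoblasts. All 9 Hoxc genes were higher in untreated MuSK-null myoblasts, with a median of 0.46, and 5 in BMP4 myoblasts. In untreated myotubes 3 were higher, and in BMP4 myotubes 2 were higher and 2 others, Hoxc9 and Hoxc13, lower. The Hoxc13 call was lost in 5 of the 6 fits that left out 1 array. In untreated and BMP4 myotubes 31.6% and 42.1% of the 19 A and C genes were called either way. This is near the 37.4% and 36.3% of all genes. In myoblasts 89.5% and 63.2% were called, against 31.3% and 29.7%. Hoxc12 read 10.23, 9.91 and 10.21 in untreated wild-type and 11.20, 10.77 and 11.11 in MuSK-null myoblasts (log2 difference 0.91, SE 0.13, adjusted p = 9.26e-06), without overlap. Hoxc5 and Hoxc6 were the 2 Hoxc genes called higher in all 4 comparisons, with differences of 0.30 to 0.82 and 0.34 to 0.45. In untreated myotubes the Hoxc5 call was lost in 3 of the 6 fits that left out 1 array and with median centring.

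Of the 10 Hoxa genes, 7 were higher and 1 lower in untreated MuSK-null myoblasts, and 6 and 1 in BMP4 myoblasts. The counts were 1 and 2 in untreated myotubes, and 0 and 4 in BMP4 myotubes. Of all genes, 31.3%, 29.7%, 37.4% and 36.3% were called either way. The 1 Hoxa gene lower throughout was Hoxa13. It read 8.56, 8.12 and 8.59 in untreated wild-type and 7.94, 7.78 and 7.96 in MuSK-null myoblasts (log2 difference -0.53, SE 0.13, adjusted p = 0.00347). With BMP4 the difference in myoblasts was -1.07 (adjusted p = 9.89e-07), and in myotubes it was -0.81 without (adjusted p = 3.11e-05) and -0.85 with BMP4 (adjusted p = 1.96e-05). Its neighbour Hoxa11 was higher in MuSK-null myoblasts by 0.58 without and 0.24 with BMP4. The call with BMP4 was lost in 5 of the 6 fits that left out 1 array.

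In BMP4 myotubes Hoxa7, Hoxa9 and Hoxa10 were lower in the MuSK-null line by -0.30, -0.39 and -0.29 on the log2 scale. Hoxa9 was also lower in untreated myotubes (-0.17, adjusted p = 0.0458), a call lost whichever of the 6 arrays was left out. Cluster D gave 0 called genes in both myoblast comparisons by limma, with 0 at an unadjusted p under 0.05. Hoxd11 was higher by 0.29 in untreated MuSK-null myotubes, and the dim gene Hoxd3 differed by -0.20 in BMP4 myotubes, a call lost in 4 of the 6 fits that left out 1 array and in 9 of 16 alternatives in all.

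**Figure D4:**
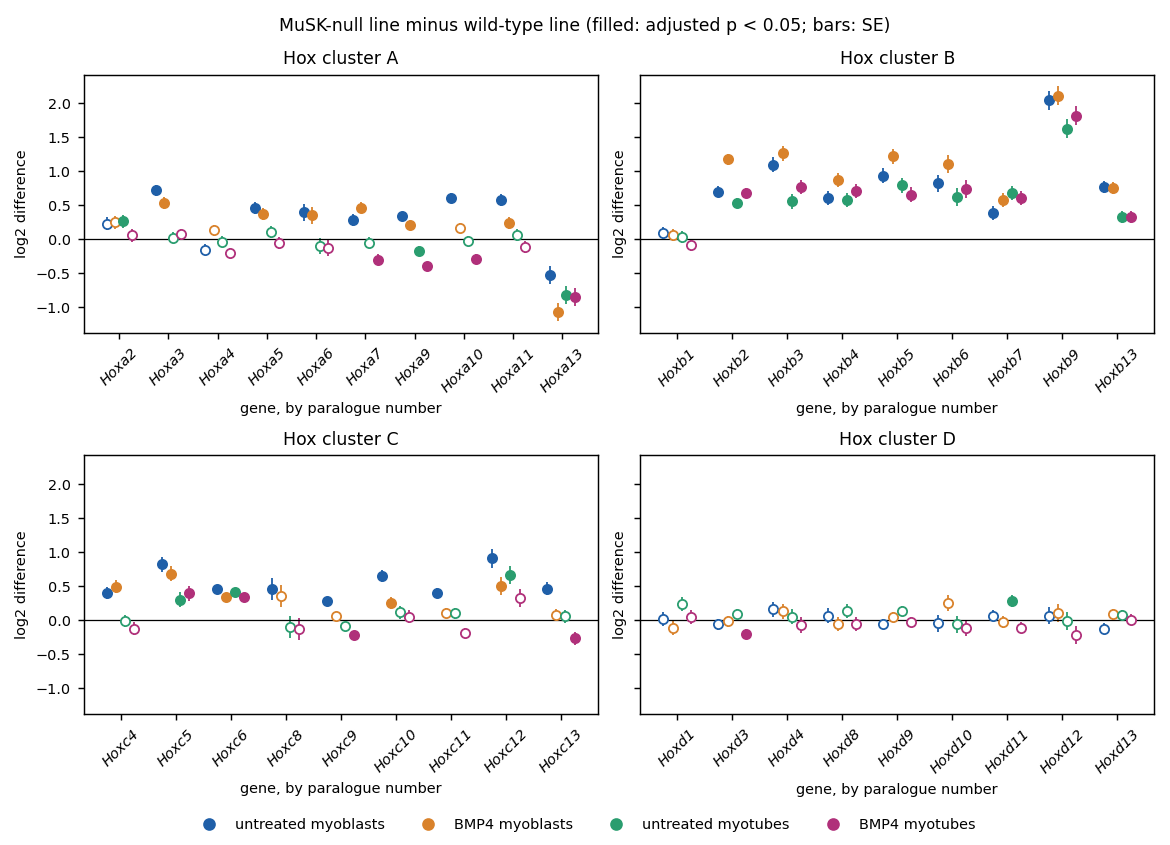
MuSK-null line minus wild-type line, in log2 units (vertical axis), for each Hox gene by cluster and paralogue number (horizontal axis); colours mark stage and treatment, filled points have an adjusted p under 0.05 and bars are the standard error. Hoxb9 stands out at 1.63 to 2.11, the other Hoxb genes except Hoxb1 are also higher, and Hoxa13 is lower in all 4 comparisons.

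The Hox clusters also hold microRNA genes. Mature sequences are shown because the row of 1, like Hoxb9, was called higher in the MuSK-null line in each genotype comparison. The RefSeq table places Mir196a-1 in cluster B at chr11:96265187-96265208, Mir196a-2 in cluster C at chr15:102973365-102973386 (both plus strand) and Mir196b in cluster A at chr6:52230129-52230150 (minus strand), all on GRCm38.p6. Mir10a lies in cluster B at chr11:96317186-96317208 and Mir10b in cluster D at chr2:74726074-74726096, both on the plus strand. Capitals mark the seed, bases 2 to 8, which pairs with target messages.
miR-196a-5p: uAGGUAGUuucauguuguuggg
miR-196b-5p: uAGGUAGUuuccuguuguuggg
miR-10a-5p: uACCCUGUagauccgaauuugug
miR-10b-5p: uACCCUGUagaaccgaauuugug

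The 3 genes of the miR-196 family share the seed AGGUAGU, and the miR-10 pair shares ACCCUGU. Targets of miR-196 are known to include Hox messages. The arrays label long RNA, so a row for a microRNA gene reads its precursor or host transcript, not the mature molecule. Mir10a and Mir10b read 3.77 to 4.54 and 3.62 to 4.21 over the 24 arrays, below the olfactory receptor yardstick.

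Mir196a-1 read 5.28, 5.33 and 5.43 in untreated wild-type and 6.33, 6.60 and 6.34 in MuSK-null myoblasts, a log2 difference of 1.08. It differed by 1.46 in BMP4 myoblasts, 0.60 in untreated myotubes and 1.05 in BMP4 myotubes, and was called in each. With BMP4 it rose in the MuSK-null line, by 0.46 in myoblasts and 0.53 in myotubes, while in wild type its changes were 0.08 and 0.08 and not called. The differences between the lines in response, 0.38 and 0.45, were not called. Its wild-type arrays, 5.28 to 5.62, and its untreated MuSK-null arrays lay below the yardstick of the same arrays, so for untreated cells neither side of these differences was above background.

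Mir196a-2 was higher in the MuSK-null line in 3 of the 4 comparisons, by 0.46 to 0.61, and Mir196b in 1, by 0.31. Of the 8 noncoding genes of the clusters that were measured, 2 were called higher and 0 lower with genotype in untreated myoblasts, 1 and 0 in BMP4 myoblasts, 4 and 1 in untreated myotubes and 2 and 0 in BMP4 myotubes. The shares of all genes called either way were 31.3%, 29.7%, 37.4% and 36.3%, so the noncoding genes as a list did not exceed them except in untreated myotubes.

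Regulators and cofactors of Hox genes were examined as lists. In untreated MuSK-null myoblasts, where 15.3% of all genes were called higher, 16% lower and 31.3% either way, 4 of 8 measured TALE cofactors were higher and 1 lower. Meis1, a cofactor of posterior Hox proteins, read 7.87, 7.91 and 7.90 in wild type and 9.71, 9.78 and 9.60 in the MuSK-null line, a difference of 1.80. Pknox2 was higher by 1.07 and Meis3 by 0.70. With BMP4, 0 cofactors rose and 1 fell in myoblasts of each line (11% of all genes called either way in wild type and 8.42% in MuSK-null), Pknox2 by -0.61 in wild type and -0.76 in the MuSK-null line.

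Of the Polycomb genes, which keep Hox clusters silent, 4 of 21 were higher and 6 lower in untreated MuSK-null myoblasts, with Eed at -0.70. The shares over all genes were 15.3% higher, 16% lower and 31.3% either way. Of 12 trithorax genes and H3K27 demethylases, 3 were higher and 1 lower, near the share of all genes, and among them were the demethylases Kdm6a (0.95) and Kdm6b (0.61). Kdm6a is X-linked, and its difference stood beside that of Xist. In untreated myotubes 2 Polycomb genes were higher and 4 lower, and 7 of the 12 were higher and 0 lower, against 19.4% and 18% of all genes. In BMP4 myotubes these were 5 and 7, and 6 and 0, against 17.5% and 18.8%. None of the 12 trithorax genes and demethylases was called with BMP4 in any of the 4 settings by limma, with 0, 0, 0 and 1 at an unadjusted p under 0.05.

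Retinoic acid genes differed widely between the lines. In untreated MuSK-null myoblasts 8 of 17 were higher and 3 lower, against the same 15.3% and 16% of all genes: Aldh1a2, which makes retinoic acid, differed by -3.40, while Crabp1 and Crabp2, which bind it, were higher by 2.48 and 1.79. With BMP4, 3 of 17 rose and 2 fell in wild-type myoblasts, where the receptor gene Rarg rose by 0.53, and 3 and 3 in MuSK-null myoblasts. Of all genes, 5.21% rose and 5.76% fell in the former and 3.89% and 4.52% in the latter. None of the 6 Cdx and ParaHox genes was called with BMP4 or with genotype by limma, and 1 had an unadjusted p under 0.05, with BMP4 in wild-type myotubes. Among 15 measured genes that flank the clusters, BMP4 raised 0 and lowered 1 in wild-type myoblasts, 1 and 1 in MuSK-null myoblasts, 1 and 0 in wild-type myotubes, and 0 and 2 in MuSK-null myotubes, near the 8.42% to 11.3% of all genes called either way.

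Differentiation lowered Hox genes mainly in the MuSK-null line. There 19 of 37 fell and 1 rose between untreated myoblasts and myotubes, with a median log2 change of -0.32 over the 37, against 23.4% of all genes tested called lower, 18.2% higher and 41.6% either way. In wild type 4 fell and 2 rose, against 24.7%, 20.3% and 45% of all genes, with a median of -0.02. The stages did not overlap for 23 Hox genes in the MuSK-null line and 12 in wild type, and for 49.4% and 53.3% of all genes. In wild type the split was 4 and 4 after quantile normalization and 4 and 3 after median centring. These comparisons share their untreated groups with those of genotype and BMP4. Myotube markers rose in both, 8 of 8, by a median of 3.78 in the MuSK-null and 1.44 in the wild-type line, and medium, temperature and interferon changed with the stage, so their parts cannot be told apart.

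In the MuSK-null line 8 of 9 Hoxc genes fell. Hoxc5, a neck and forelimb-level gene, read 9.07, 9.00 and 8.95 in myoblasts and 7.85, 8.05 and 7.89 in myotubes (log2 change -1.08, SE 0.11, adjusted p = 2.88e-08). Hoxc9 read 9.75, 9.84 and 9.85 in myoblasts and 8.93, 8.97 and 8.90 in myotubes (log2 change -0.88, SE 0.06, adjusted p = 4.36e-11). Both dropped on all arrays.

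Hoxc11 fell by 0.68 and Hoxa6, a central gene, by 0.58 in that line. The gene that rose was Hoxa4, which read 8.31, 8.37 and 8.38 in myoblasts and 8.62, 8.44 and 8.75 in myotubes (log2 change 0.25, adjusted p = 0.0151). That call was lost without untreated myoblast replicate 1 or untreated myotube replicate 3. With the 4 deviating arrays as a block 21 genes were called in this line, and without them 20. Of the Hoxb genes 5 fell, and no Hoxd gene was called, with 0 at an unadjusted p under 0.05.

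In wild type the 4 genes that fell were all in cluster C, but with the 4 deviating arrays as a block 6 fell, Hoxa6 and Hoxc12 being added, and without those arrays 6 fell and 3 rose. Hoxc5 read 8.25, 8.10 and 8.21 in myoblasts and 7.70, 7.35 and 7.84 in myotubes (log2 change -0.55, SE 0.11, adjusted p = 2.45e-04). Hoxc9 read 9.61, 9.49 and 9.48 in myoblasts and 9.07, 9.07 and 8.92 in myotubes (log2 change -0.51, SE 0.06, adjusted p = 3.67e-07). Neither overlapped. Hoxc11 and Hoxc6 fell by 0.39 and 0.28, and Hoxa7 and Hoxa10 rose by 0.31 and 0.29.

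**Figure D5:**
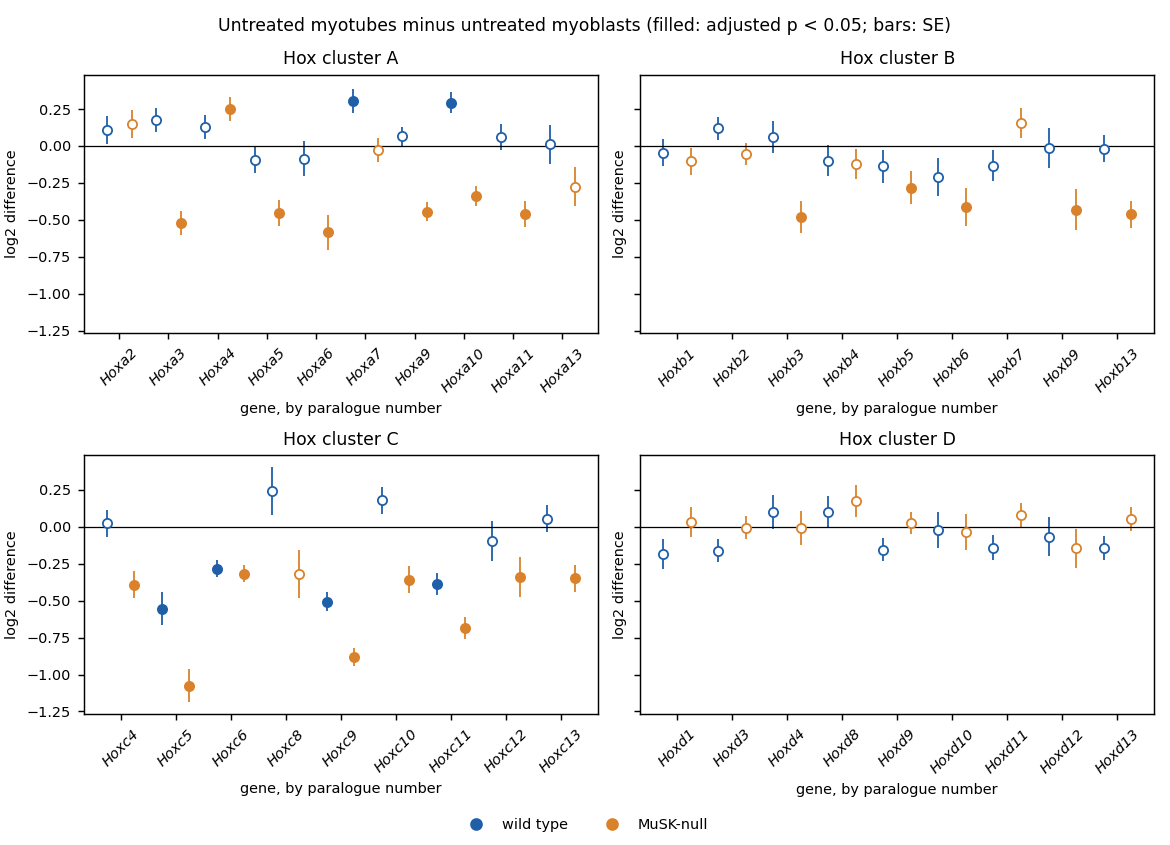
Untreated myotubes minus untreated myoblasts, in log2 units (vertical axis), for each Hox gene by cluster and paralogue number (horizontal axis), in wild type (blue) and MuSK-null (orange); filled points have an adjusted p under 0.05 and bars are the standard error. In the MuSK-null line 19 genes fell, down to -1.08 for Hoxc5, and in wild type 4 fell.

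The difference between the lines in this change was called for 15 of 37 Hox genes, all lower in the MuSK-null line, against 14.1% of all genes called lower, 14.9% higher and 29.1% either way. Of these, 7 were Hoxa, 2 Hoxb and 6 Hoxc genes. With the 4 deviating arrays as a block 17 were called, and without them 16. Hoxa3 read 6.84, 6.78 and 6.73 in wild-type myoblasts and 6.95, 6.88 and 7.04 in wild-type myotubes. In the MuSK-null line it read 7.54, 7.41 and 7.56 in myoblasts and 6.93, 7.04 and 6.98 in myotubes. The lines were apart as myoblasts and overlapped as myotubes, a difference of change of -0.70 (SE 0.12, adjusted p = 5.88e-05).

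Hoxa10 differed in the same way by -0.63 (SE 0.10, adjusted p = 2.56e-05): it read 8.51, 8.46 and 8.51 in wild-type and 8.49, 8.44 and 8.49 in MuSK-null myotubes, after 8.12 to 8.27 and 8.74 to 8.89 in the myoblasts. Hoxb3 differed by -0.54 (SE 0.16, adjusted p = 0.0101), but stayed apart in myotubes, at 7.65 to 7.82 in wild type and 8.20 to 8.37 in the MuSK-null line. Cluster D had 0 called differences, and 0 at an unadjusted p under 0.05.

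Across the 8 group means, genes of 1 cluster varied together to different degrees. The median Pearson correlation between pairs was 0.94 within cluster B (36 pairs), 0.75 within C (36 pairs), 0.33 within A (45 pairs) and 0.20 within D (36 pairs), against 0.37 for the 513 pairs from different clusters. Among the posterior A and C genes it was 0.77 over 36 pairs, which ranged from -0.15 to 0.96. That set was singled out for its rises with BMP4 on these same arrays, so its value is no separate result. Each value rests on 8 group means that share arrays, and the low value in D stands on genes of which 6 were dim. Without Hoxb1, the Hoxb gene that did not follow the line, the median within cluster B was 0.95.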

How the data were processed

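The 24 arrays were read from the deposited table. Its values are log2 signals per probe set, a scale inferred from their span of 2.50 to 15.03, with array medians of 7.38 to 7.50. The tools, per the submitters' processing notes, were Partek and Affymetrix Expression Console, without versions; the sources used here do not give the background correction, summarisation or normalization of the deposited log2 values. Of 35556 rows, the platform annotation gives 1 gene to 21789, several to 1621 and none to 12146; only the first were tested. For the 999 genes with several rows the row with the highest mean was kept. Of the 21789 rows, 21698 were found in the RefSeq gene table and 0 symbols changed. No filter on dim genes was applied; under the filter tried as an alternative 31 of the 37 members passed and Hoxd1, Hoxd3, Hoxd4, Hoxd8, Hoxd12 and Hoxd13 did not.

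For 19938 genes, limma 3.58.1 fitted group means in R 4.3.3 (16 residual degrees of freedom, empirical Bayes moderation), with 13 contrasts, and p-values were adjusted by Benjamini-Hochberg over all genes in each contrast. A gene is called at an adjusted p under 0.05; SE and 95% intervals come from the model. The scripts were tested on simulated data. Median within-group SD was 0.09 for Hox genes and for all genes. No 2 arrays held the same values.

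Arrays were listed for up to 4 called members per direction and comparison whose groups did not overlap (up to 3 for differences of changes), and up to 3 called genes were named per other list. The members, lists and tests were chosen with earlier results of these data known. Alternatives changed the scaling, moderation, filter, groups in the fit, row choice, fold minimum, replicate block and arrays left out; the treatment of the 4 deviating arrays and the replicate block on the compared groups alone were added after seeing the data. By the correlation of deviations, same-numbered arrays deviated together in 2 comparisons, BMP4 in MuSK-null myoblasts (0.12 to 0.46) and genotype in untreated myoblasts (0.22 to 0.42), and not in the other 8 checked. In both, the replicate 2 arrays are among the 4 deviating arrays. No genome was used; promoter and microRNA sequences are from RefSeq tables on GRCm38.p6.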

Additional observations from a re-analysis of the deposited data

Results flagged for a closer look

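These genes are listed because the change in the MuSK-null line differed from that in the wild-type line by a test of the difference itself (limma, adjusted over all genes). In the BMP4 response of myoblasts the difference was -0.45 for Hoxa10 and 0.47 for Hoxb2; both calls were lost without the 4 arrays that deviated together. In the change from untreated myoblasts to untreated myotubes, all 15 were lower in the MuSK-null line. In cluster A the differences were -0.70 for Hoxa3, -0.35 for Hoxa5, -0.50 for Hoxa6, -0.34 for Hoxa7, -0.51 for Hoxa9, -0.63 for Hoxa10 and -0.53 for Hoxa11. In cluster B they were -0.54 for Hoxb3 and -0.44 for Hoxb13. In cluster C they were -0.41 for Hoxc4, -0.52 for Hoxc5, -0.37 for Hoxc9, -0.54 for Hoxc10, -0.30 for Hoxc11 and -0.41 for Hoxc13. Of the 12 fits that left out 1 array, the call was lost in 9 for Hoxa5, 7 for Hoxc11, 6 for Hoxa6, 5 for Hoxa7, 5 for Hoxc13, 2 for Hoxc4 and 1 for Hoxc5, and in 0 for the other 8 genes of this change. Hoxc11 was also lost without the 4 deviating arrays and in a fit on the compared groups alone.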

How the results depend on the processing

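Of 155 Hox calls over the 13 comparisons, 114 held in every fit that left out 1 array and 0 reversed in any fit run. Counts of called Hox genes are given in the order BMP4 in wild-type myoblasts, MuSK-null myoblasts, wild-type myotubes and MuSK-null myotubes; genotype in untreated myoblasts, BMP4 myoblasts, untreated myotubes and BMP4 myotubes; differentiation in wild type and MuSK-null; response difference in myoblasts and myotubes; and differentiation difference. With 1 array left out the counts ranged from 10 to 15, 6 to 15, 6 to 8, 3 to 5, 22 to 26, 16 to 22, 10 to 15, 15 to 17, 6 to 8, 17 to 19, 1 to 3, 0 to 1 and 10 to 15. A minimum fold of 1.5 left 7, 2, 2, 1, 12, 9, 6, 8, 0, 3, 0, 0 and 2, so most called differences were smaller than that. Median centring left 1 response difference in myoblasts. With the replicate number as a block, the response difference in myotubes gave 1 gene, Hoxd11, against 0; the 2 comparisons whose numbers pair gave 10 and 25, against 9 and 25. With the block on the compared groups alone, 1 response difference remained in myoblasts, and the other counts moved by under 1.5 times. The 4 arrays that deviated together, as a block, gave 14 genes for BMP4 in MuSK-null myoblasts, 6 response differences in myoblasts and 2 in myotubes; without them the response differences were 0 and 2. Quantile normalization kept 152 of the 155 calls, and leaving out dim genes kept all 154 calls it could test. The number of arrays limits what these data can show. So does signal near background, for 6 Hoxd genes, wild-type Mir196a-1 and, in wild type, Hoxb2, Hoxb4, Hoxb6, Hoxb7 and Hoxb13.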

Other observations

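The row that Hoxb8 shares with Hoxb7 was left out of the tests because it names 2 genes. It read 6.40 ± 0.27 (SD, n = 3) in untreated and 6.33 ± 0.33 in BMP4 wild-type myoblasts, and 7.22 ± 0.18 and 7.51 ± 0.09 in the MuSK-null ones. In myotubes it read 6.48 ± 0.18 and 6.42 ± 0.12 in wild type and 7.08 ± 0.21 and 7.17 ± 0.19 in the MuSK-null line. Every MuSK-null array lay above every wild-type array, at 6.83 or more against 6.71 or less.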
